A study of Mus musculus with 10 samples.

Results

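The plasminogen activator system was described in the hippocampus of mice before and after status epilepticus (SE) through 5 genes, chosen by symbol from the 15900 genes in the deposited table: the activators *Plat* and *Plau*, the receptor *Plaur* and the inhibitors *Serpine2* and *Serpini1*. All 5 were present. Capped transcript starts were counted by cap analysis of gene expression (CAGE) in whole hippocampi of 10 male ICR (CD-1) mice. There were 5 groups of 2 animals each. Those called pre-SE were labelled untreated. SE 6 h and SE 2 days mice were taken 6 h and 2 days after SE induced by pilocarpine (PILO), a muscarinic agonist that causes convulsive seizures. SE + LEV 6 h and SE + LEV 2 days mice were taken at the same times after SE and also received oral levetiracetam (LEV), an antiseizure drug, 1 time or 5 times before sampling. According to the methods, PILO was given at 9 to 10 weeks of age after methyl scopolamine, and SE was ended with diazepam. The methods also state that control mice received saline in place of PILO. No group received LEV without PILO, so that an effect of LEV apart from SE was not measured.

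Tissue-type plasminogen activator (tPA), encoded by *Plat*, and urokinase (uPA), encoded by *Plau*, are serine proteases that cleave the circulating zymogen plasminogen to plasmin, a protease that dissolves fibrin and digests extracellular matrix. The urokinase receptor (uPAR), encoded by *Plaur*, is anchored to the cell surface by a lipid and holds uPA there. Protease nexin-1, encoded by *Serpine2*, and neuroserpin, encoded by *Serpini1*, are serpins that inhibit plasminogen activators. In brain, tPA is made by neurons, microglia and vascular endothelial cells, neuroserpin is made mainly by neurons, and protease nexin-1 is made mainly by astrocytes. The hippocampus is a site where tPA is known to be induced by neuronal activity.

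In the mm9 mouse genome, *Plat* (ENSMUSG00000031538) spans bases 23868216 to 23893319 of chromosome 8 on the plus strand, with 14 annotated exons. *Plau* (ENSMUSG00000021822) spans 21655884 to 21662610 of chromosome 14 on the plus strand, with 11 exons, and *Plaur* (ENSMUSG00000046223) spans 25247519 to 25260892 of chromosome 7 on the plus strand, with 7 exons. *Serpine2* (ENSMUSG00000026249) spans 79790772 to 79855271 of chromosome 1 on the minus strand, and *Serpini1* (ENSMUSG00000027834) spans 75361469 to 75447417 of chromosome 3 on the plus strand. Each serpin gene had up to 9 exons in a transcript. All 5 were protein-coding and overlapped no other annotated gene.

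Because CAGE tags mark the starts of transcripts, the promoters are shown for the members with a RefSeq entry, which were 3 of the 5, *Plaur*, *Serpine2* and *Serpini1*. *Plat* and *Plau* had none in the table used. Each sequence has 300 bases, from 250 before to 50 after the RefSeq start of transcription, and is written 5′ to 3′ on the strand of the gene. Coordinates are those of GRCm38.p6, another build than that of the gene spans above: chr7:24462233-24462532 (plus) for *Plaur*, chr1:79858616-79858915 (minus) for *Serpine2* and chr3:75557243-75557542 (plus) for *Serpini1*. Capitals mark matches to the AP-1 motif TGANTCA or to the GC box GGGCGG.

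Plaur: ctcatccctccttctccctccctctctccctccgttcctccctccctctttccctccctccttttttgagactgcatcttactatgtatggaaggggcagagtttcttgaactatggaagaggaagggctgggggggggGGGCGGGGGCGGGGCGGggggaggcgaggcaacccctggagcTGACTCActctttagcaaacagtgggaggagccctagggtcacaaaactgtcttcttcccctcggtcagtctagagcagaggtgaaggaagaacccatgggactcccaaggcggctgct
Serpine2: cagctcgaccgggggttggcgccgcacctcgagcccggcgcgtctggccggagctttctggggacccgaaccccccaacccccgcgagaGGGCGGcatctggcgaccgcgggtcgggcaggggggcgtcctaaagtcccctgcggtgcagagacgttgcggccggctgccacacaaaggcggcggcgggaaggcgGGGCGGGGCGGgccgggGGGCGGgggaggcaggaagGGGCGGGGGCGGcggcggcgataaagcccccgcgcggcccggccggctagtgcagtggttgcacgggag
Serpini1: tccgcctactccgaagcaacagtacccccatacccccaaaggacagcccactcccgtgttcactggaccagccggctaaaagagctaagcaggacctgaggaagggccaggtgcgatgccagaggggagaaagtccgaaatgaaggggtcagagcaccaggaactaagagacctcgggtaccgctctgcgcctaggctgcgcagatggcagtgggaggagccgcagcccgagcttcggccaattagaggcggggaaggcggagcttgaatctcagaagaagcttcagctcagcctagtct

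The *Plaur* promoter held 1 AP-1 match, TGACTCA, whose first base lay at position -69 counted from the RefSeq start, and 3 GC boxes at -111, -105 and -100. The *Serpine2* promoter held 6 GC boxes at -161, -55, -50, -38, -19 and -13. In *Plaur* the boxes at -105 and -100 overlapped by 1 base, as did those at -55 and -50 in *Serpine2*. The *Serpini1* window held none of the motifs searched. Both strands were searched for these motifs and for the cAMP response element TGACGTCA, the TATA box TATAAA and the E-box CACGTG, and none of the last 3 was in the windows of the 3 genes. Of all 32851 RefSeq mouse promoters of this length, 7.81% held the AP-1 motif, 35.7% a GC box, 13.6% a TATA box, 7.15% an E-box and 1.79% a cAMP response element. GC content was 59.3% in *Plaur*, 77.7% in *Serpine2* and 60.0% in *Serpini1*, beside a median of 52.7% over all promoters. These matches describe letters in the reference. The deposited values are per gene, and the start sites in use were not analysed here.

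Values are in CPM, the tags of a gene scaled so that all listed genes of a library have the same fixed total. The number of tags behind each value was recovered from the CPM steps, and the 10 libraries held 10540698 to 51710968 tags, so that 3 tags, the limit of detection used here, corresponded to 0.058 to 0.285 CPM. Markers of neurons (4 of 5 in the table), dentate granule cells (3 of 4) and CA1 and CA3 pyramidal cells (4 of 4) were expressed in all groups. Differences between groups (logFC) are differences of mean log2(CPM + 0.1), with their standard error (s.e.), and were tested with limma across 15851 genes that reached 0.1 CPM in at least 2 libraries. All 5 members passed this filter. Genes with a Benjamini-Hochberg adjusted p of at most 0.05 were called. With 2 mice against 2, an exact permutation test cannot give a two-sided p under 0.333, so that the calls rest on the spread which limma shares across genes and groups. The choroid plexus markers (3 of 5 in the table) differed widely between mice of the same group, with sums from 8.15 to 3970 CPM in SE 6 h mice and from 12.1 to 1690 CPM in pre-SE mice.

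Transcripts of the activators and of the receptor rose after SE, *Plat* at 6 h, *Plau* at 2 days and *Plaur* at both times, whereas neither *Serpine2* nor *Serpini1* was called in any comparison. At 6 h after SE, *Plat* was 4.15-fold and *Plaur* 163-fold above pre-SE mice in mean CPM (63.5-fold in SE 6 h replicate 1 and 262-fold in replicate 2), and at 2 days *Plau* was 9.99-fold and *Plaur* 71.4-fold above them. So 2 of 5 members were called higher at 6 h, against 2.76% of all genes tested, and 2 of 5 at 2 days, against 5.07%. None was called lower at either time. The members were chosen with earlier results of these data known, so these shares are descriptions and no test of the set. Over the members, the median logFC was 2.07 for SE 6 h and 0.88 for SE 2 days, whereas all genes tested had medians of -0.13 and -0.03. Both comparisons share the pre-SE mice.

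**Figure D1:**
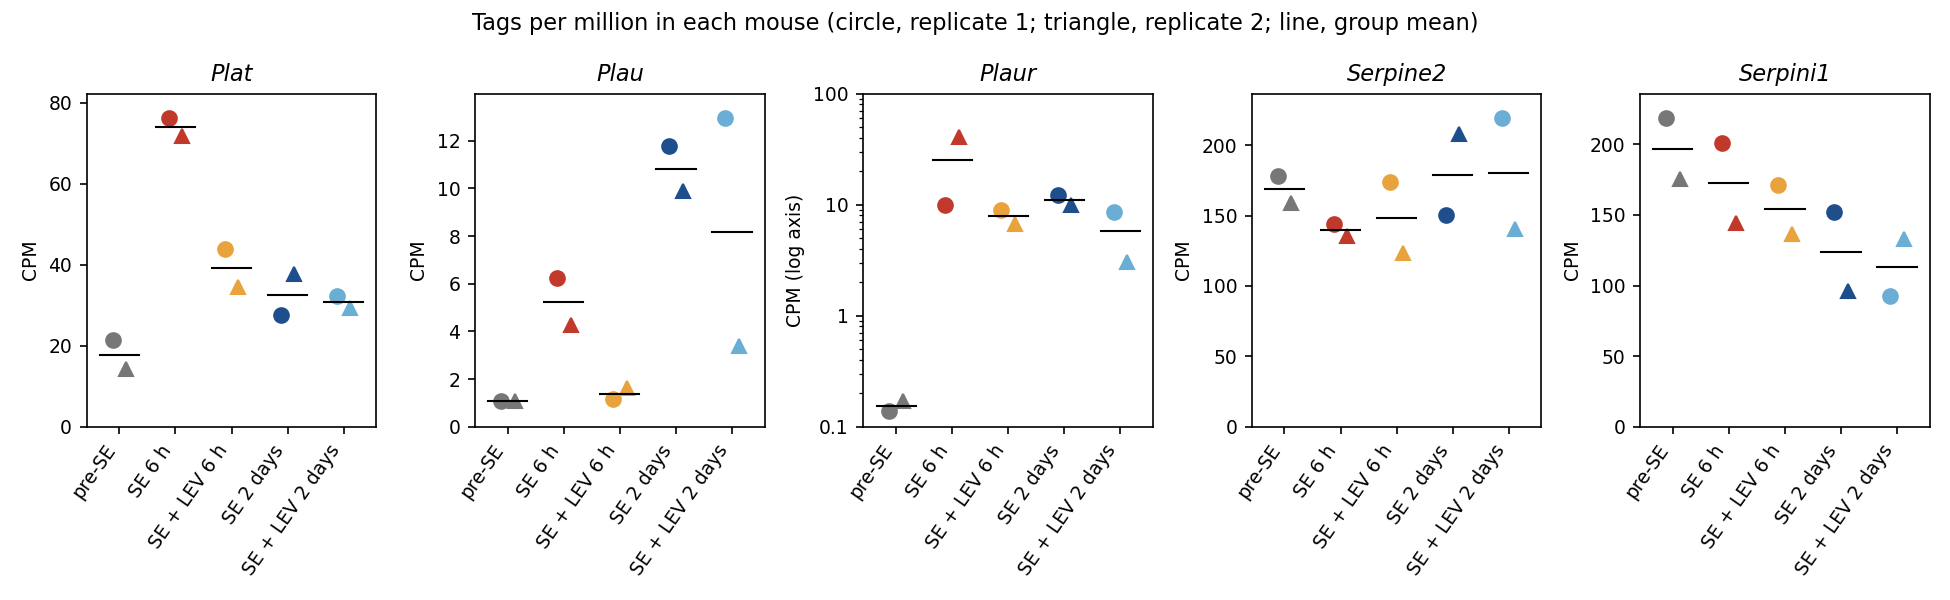
CPM of each member in each of the 10 mice, with 1 panel for each gene, groups on the horizontal axis and CPM on the vertical axis (logarithmic for *Plaur*, from 0 for the others). Circles are replicate 1, triangles replicate 2 and lines the mean of the 2 mice. *Plat* was highest in SE 6 h mice (71.81 and 76.18 CPM), and *Plaur* was lowest in pre-SE mice (0.14 and 0.17 CPM). Most groups overlapped for *Serpine2*. For *Serpini1*, both groups at 2 days lay below the pre-SE mice, a difference that was not called.

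*Plat* was measured at 21.38 and 14.29 CPM before SE, at 76.18 and 71.81 CPM 6 h after it and at 27.6 and 37.64 CPM 2 days after it. With LEV it was at 43.96 and 34.63 CPM at 6 h and at 32.26 and 29.45 CPM at 2 days. The SE 6 h mice stood above all other mice, the pre-SE mice below all other mice, and the SE + LEV 6 h mice partly overlapped the SE 2 days mice. *Plat* rose at 6 h (logFC 2.07, s.e. 0.27, adjusted p = 0.0044 with limma), and this was called under every alternative setting and without each mouse in turn (adjusted p up to 0.039). At 2 days the logFC was 0.88 (s.e. 0.27, adjusted p = 0.098) and was not called under any alternative, although both mice lay above both pre-SE mice. Between the time points *Plat* fell by 1.20 on the log2 scale from SE 6 h to SE 2 days (s.e. 0.27, adjusted p = 0.038). It was the only member of the 5 called in that comparison, in which 1.11% of genes tested were called lower. This call was lost with the replicate number as a block (adjusted p = 0.051), without the mean-variance trend (0.059), and without any 1 of the SE 6 h, SE + LEV 6 h or SE 2 days mice (0.052 to 0.22). The alternatives together ran from 0.0024 to 0.22.

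*Plau* was low before SE, at 1.07 and 1.10 CPM (31 and 57 tags), and reached 6.25 and 4.25 CPM 6 h after SE and 11.79 and 9.89 CPM 2 days after it. With LEV it was at 1.16 and 1.61 CPM at 6 h, next to the pre-SE mice, and at 12.94 and 3.37 CPM at 2 days. Without LEV the values thus stood higher at each later time with no overlap, and the SE + LEV 2 days mice spanned the range from below SE 6 h to above SE 2 days. *Plau* rose at 2 days (logFC 3.20, s.e. 0.55, adjusted p = 0.0079 with limma). The call was lost without pre-SE replicate 1 (adjusted p = 0.054) or without SE 2 days replicate 2 (0.064), with logFC values of 3.18 and 3.33 (range over all alternatives 3.4e-07 to 0.064). At 6 h its logFC was 2.15 (s.e. 0.55) with an adjusted p of 0.073 and was not called. It was called at 6 h with DESeq2 on the recovered tags (0.001), with only the compared groups in the fit (0.029) and without SE + LEV 2 days replicate 1 (0.012) or 2 (0.011), and the alternatives ran up to 0.27. From SE 6 h to SE 2 days its logFC was 1.05 (s.e. 0.55, adjusted p = 0.31), so that a further rise was not shown.

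*Plaur* was close to the limit of detection in pre-SE mice, at 0.14 and 0.17 CPM (4 and 9 tags). It reached 9.85 and 40.56 CPM 6 h after SE and 12.25 and 9.89 CPM 2 days after it, and with LEV stood at 9.0 and 6.74 CPM at 6 h and 8.64 and 3.04 CPM at 2 days. Every mouse given PILO stood above both pre-SE mice, and SE 6 h replicate 2 stood above all others. *Plaur* had the largest logFC of the 5 members at both times, 6.30 at 6 h (s.e. 0.64, adjusted p = 0.0023 with limma) and 5.45 at 2 days (s.e. 0.64, adjusted p = 0.0014). Both were called under every alternative and without each mouse in turn, with adjusted p up to 0.017 and 0.016. Since few tags stood behind the pre-SE values, the size depended on the pseudocount, and the logFC at 6 h ran from 4.20 to 7.43 over the alternative settings. The summed choroid plexus markers were 3970 CPM in SE 6 h replicate 2 and 8.15 CPM in replicate 1. Without replicate 2 the logFC of *Plaur* was 5.29 and still called. From SE 6 h to SE 2 days the logFC was -0.86 (s.e. 0.64, adjusted p = 0.49), and it turned to 0.16 without SE 6 h replicate 2.

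*Serpine2* was measured at 178.27 and 158.86 CPM before SE, at 143.75 and 135.74 CPM 6 h after it and at 150.43 and 208 CPM 2 days after it. With LEV it was at 173.71 and 123.24 CPM at 6 h and at 219.1 and 140.22 CPM at 2 days. Except for SE 6 h, which lay below pre-SE and SE 2 days, the groups overlapped. Its logFC against pre-SE was -0.27 at 6 h (s.e. 0.28, adjusted p = 0.66 with limma) and 0.07 at 2 days (s.e. 0.28, adjusted p = 0.93). Median-of-ratios rescaling, which moved the median logFC of all genes at 6 h by 0.12, gave -0.14 at 6 h, and the sign at 2 days turned without pre-SE replicate 2 (-0.01) or SE 2 days replicate 2 (-0.16).

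*Serpini1* was measured at 218.55 and 175.82 CPM before SE, at 201.26 and 144.44 CPM 6 h after it and at 151.79 and 96.24 CPM 2 days after it. With LEV it was at 171.28 and 136.52 CPM at 6 h and at 92.59 and 133.16 CPM at 2 days. The group means were highest before SE, followed by both groups at 6 h and then both at 2 days, with SE above SE + LEV each time, and neighbouring groups in this order overlapped in each case. Both SE 2 days mice lay below both pre-SE mice, with a logFC of -0.70 (s.e. 0.30, adjusted p = 0.23 with limma), which was not called here or under any alternative. At 6 h the logFC was -0.20 (s.e. 0.30, adjusted p = 0.76), -0.07 after median-of-ratios rescaling and 0.04 without SE 6 h replicate 2. Both SE + LEV groups also lay below the pre-SE mice. Their logFC values were -0.36 at 6 h (adjusted p = 0.71 with limma) and -0.82 at 2 days (adjusted p = 0.29), and neither was called.

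**Figure D2:**
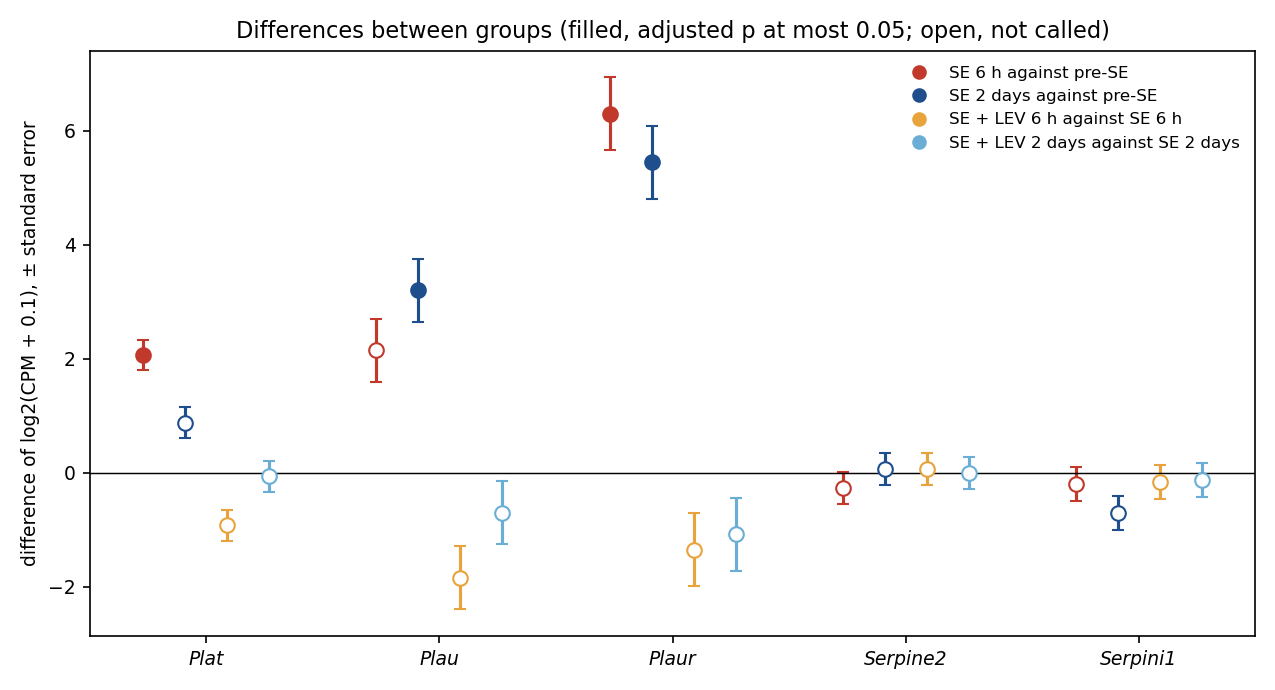
Differences of log2(CPM + 0.1) between groups on the vertical axis for the 5 members, with standard errors from the limma fit of 10 libraries. Filled points had an adjusted p of at most 0.05 and open points did not. The filled points are *Plat* (2.07) and *Plaur* (6.30) at 6 h and *Plau* (3.20) and *Plaur* (5.45) at 2 days, and all differences between SE + LEV and SE mice are open.

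To ask whether LEV changed these transcripts after SE, SE + LEV mice were compared with SE mice of the same time. The SE mice enter both these comparisons and those with pre-SE mice, so a chance high value of an SE mouse moves both. At 6 h, *Plat*, *Plau* and *Plaur* were lower in both LEV mice than in both SE mice. Thus 3 of 5 members had both mice below, beside 13.4% of all genes tested. The logFC was -0.92 for *Plat* (s.e. 0.27, adjusted p = 0.67 with limma), -1.84 for *Plau* (s.e. 0.55, adjusted p = 0.68) and -1.35 for *Plaur* (s.e. 0.64, adjusted p = 1.0). None of the 5 members was called by limma, edgeR or DESeq2. With limma, 2 (*Plat* and *Plau*) were lower at an unadjusted p under 0.05, as were 542 of all 15851 genes tested. At the adjusted threshold 0.0126% of all genes tested were called lower by limma (2 of 15851, with 0 by edgeR and 69 by DESeq2). The direction of these 3 members was kept without each mouse in turn, with the logFC of *Plaur* at -0.33 without SE 6 h replicate 2. The logFC of *Serpine2* was 0.07 (s.e. 0.28) and that of *Serpini1* -0.16 (s.e. 0.30), each with an adjusted p of 1.0.

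On the log2 scale, with the mean of pre-SE mice set to 0% and that of SE 6 h mice to 100%, the SE + LEV 6 h mice stood at 63.9% and 47.3% for *Plat*. They stood at 4.1% and 24.6% for *Plau* and at 81.8% and 75.3% for *Plaur*. On the same scale at 2 days, with SE 2 days mice at 100%, the SE + LEV 2 days mice stood at 100.1% and 85.2% for *Plat*, 108.1% and 48.4% for *Plau* and 93.7% and 66.5% for *Plaur*. Against pre-SE mice, *Plaur* was the 1 of 5 members called in SE + LEV 6 h mice (logFC 4.95, s.e. 0.64, adjusted p = 0.015 with limma), beside 0.315% of all genes called higher. This call was lost with pseudocounts of 0.5 CPM (0.062) and 1 CPM (0.13) and without any 1 of the 4 mice compared (0.079 to 0.12), and was kept with edgeR (0.032) and DESeq2 (9.8e-12). *Plat* had a logFC of 1.15 (s.e. 0.27, adjusted p = 0.15), called only with DESeq2 (0.011; alternatives up to 0.73), and *Plau* one of 0.31 (s.e. 0.55, adjusted p = 0.87).

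At 2 days, *Plaur* was the 1 of 5 members with both LEV mice below both SE mice, beside 12.2% of all genes. Its logFC was -1.08 (s.e. 0.64, adjusted p = 1.0 with limma). The groups overlapped for the other members, with logFC values of -0.06 for *Plat*, -0.70 for *Plau*, -0.01 for *Serpine2* and -0.12 for *Serpini1*. *Plau* was at 12.94 CPM in one LEV mouse and 3.37 CPM in the other, and its logFC turned to 0.26 without SE + LEV 2 days replicate 2. None of the 5 members was called by limma, edgeR or DESeq2, none had an unadjusted p under 0.05, and 0.0% of all genes tested were called lower (0 of 15851, with 220 lower at an unadjusted p under 0.05; edgeR called 0 and DESeq2 4). In SE + LEV 2 days mice against pre-SE mice, 2 of 5 members were called higher, beside 2.83% of all genes. These were *Plau* (logFC 2.51, s.e. 0.55, adjusted p = 0.038) and *Plaur* (logFC 4.36, s.e. 0.64, adjusted p = 0.0066). The call of *Plau* was kept under 8 of 21 alternatives. It was lost with pseudocounts of 0.5 CPM (0.054) and 1 CPM (0.074), median-of-ratios rescaling (0.051) and only the compared groups in the fit (0.2). It held without SE + LEV 2 days replicate 2 and was lost without any other 1 of the 10 mice (adjusted p 0.059 to 0.27), and the range over all alternatives was 2e-05 to 0.27. That of *Plaur* was lost with a pseudocount of 1 CPM (0.074), with only the compared groups (0.052) and without SE + LEV 2 days replicate 1 (0.053).

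Whether the LEV effect differed between the time points was tested as an interaction. The largest shift relative to its error was that of *Plat*, 0.86 (s.e. 0.39, adjusted p = 1.0 with limma), and a difference between the time points was not shown for any member. *Plau* was at 1.16 and 1.61 CPM in SE + LEV 6 h mice and at 12.94 and 3.37 CPM in SE + LEV 2 days mice. This was not called by limma (adjusted p = 0.087), and the logFC ran from 1.24 without SE + LEV 2 days replicate 1 (adjusted p = 0.55) to 3.15 without replicate 2 (0.0059). DESeq2 called it (0.0012), and the alternatives ran from 0.0012 to 0.55.

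The whole hippocampus holds many cell types, and a change in the number of cells of a type cannot be told apart from a change in RNA per cell. The summed endothelial markers (5 of 5 in the table) ran from 57.4 to 62.9 CPM before SE. At 6 h they ran from 110 to 170 CPM without LEV and 87.9 to 145 with LEV, and at 2 days from 97.3 to 112 without and 88.1 to 128 with LEV. Of these 5 markers, 1 was called higher at 6 h and none at 2 days by limma. Their sums were lowest before SE and highest in SE 6 h replicate 2 (170 CPM). SE 6 h replicate 1 (110 CPM) lay inside the range of the other groups after SE. For *Plat*, both SE 6 h mice stood above all other mice, with replicate 1 highest. The summed microglial markers (5 of 5) ran from 352 to 411 CPM before SE, 252 to 276 at 6 h without and 261 to 275 with LEV, and 766 to 931 at 2 days without and 822 to 1040 with LEV. Of these 5 markers, 2 were called lower at 6 h and 1 higher at 2 days by limma. *Plau* stood above pre-SE mice in both SE groups (6.25 and 4.25 CPM at 6 h) and was at 3.37 CPM in SE + LEV 2 days replicate 2. The summed astrocyte markers (5 of 5) ran from 1930 to 2080 CPM before SE, 1860 to 2220 at 6 h without and 1700 to 2210 with LEV, and 3270 to 4740 at 2 days without and 3660 to 4100 with LEV, and 2 of the 5 were called higher at 2 days by limma. *Serpine2* was not called at either time. The summed oligodendrocyte markers (4 of 4) ran from 4150 to 4740 CPM before SE, 2890 to 5670 at 6 h without and 3730 to 4660 with LEV, and 1530 to 2310 at 2 days without and 2730 to 4000 with LEV, with none of the 4 called by limma at either time. The summed neuronal markers (4 of 5) were 4640 to 4960 CPM before SE. At 6 h they were 3390 to 4650 without and 3600 to 4510 with LEV, and at 2 days 2910 to 3600 without and 2970 to 2980 with LEV. None of the 4 was called by limma after SE at either time. From pre-SE to SE 2 days mice, dentate granule cell sums went from 363 to 439 CPM to 199 to 270. Those of CA1 and CA3 pyramidal cells went from 275 to 301 CPM to 254 to 381. Interneuron sums (4 of 4) went from 800 to 980 CPM to 749 to 1210. *Serpini1* was not called at either time. Markers of infiltrating myeloid cells (2 of 4) summed to 0.59 to 1.6 CPM in pre-SE mice and at most 5.7 CPM in the other groups. None of the marker genes named here was at 0 in any library except *Aqp1* of the choroid plexus list, in SE + LEV 6 h mice. The part of cell composition in the results for the members was not tested.

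Across the 10 libraries, log2(CPM + 0.1) of *Plat* and *Plaur* had a Pearson r of 0.81, *Plau* and *Plaur* one of 0.62, *Plat* and *Plau* one of 0.35, and *Plau* and *Serpini1* one of -0.63. These points share the 5 groups, so the values describe a common course over the groups. Among the 14218 genes with a mean of at least 1 CPM, the profile most like that of *Plat* was *Cdh5*, the endothelial cadherin of adherens junctions (r = 0.958), followed by *Fam196a* (0.958) and *Arpp19* (0.957). The profile of *Plau* was closest to those of *Ifi204* (0.98), an interferon-inducible gene with near-identical relatives, *Csf1* (0.977), the growth factor of microglia and macrophages, and *Eif4ebp1* (0.974), a repressor of translation. That of *Plaur* was closest to *Ctla2b* (0.989), which also has a near-identical relative, *Socs3* (0.985), a feedback inhibitor of cytokine signalling, and *Rhoj* (0.974), an endothelial small GTPase. *Serpine2* was followed by *Lass2* (0.934), *Matn4* (0.921) and *Gap43* (0.896), and *Serpini1* by *Gabrb2* (0.96), a subunit of the GABA-A receptor, and *Srpk2* (0.952). *Fam196a*, *Lass2*, *Matn4* and *Srpk2* overlap other annotated genes.

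The pathway around the members was followed through 43 genes listed by role, of which 28 were in the table and tested. This list too was chosen with earlier results of these data known, so the shares below are descriptions. At 6 h after SE, 5 of the 28 were called higher by limma, beside 2.76% of all genes tested, and none lower, with a median logFC of 0.40. At 2 days 6 were called higher, beside 5.07% of all genes, and none lower, with a median logFC of 1.18. *Plg*, which encodes plasminogen itself, was not among the genes analysed here. Over all genes tested, the number called higher fell at both times without any 1 of the mice compared. With DESeq2 it rose from 437 to 1008 at 6 h and from 803 to 1260 at 2 days. With only the compared groups in the fit it was 999 at 2 days. The counts of the 28 genes also rested on single mice. At 6 h they were 0 without pre-SE replicate 1 or either SE 6 h mouse, 1 without pre-SE replicate 2, 3 without either SE + LEV 6 h mouse and 8 with DESeq2. At 2 days they were 3 without pre-SE replicate 1, 2 without SE 2 days replicate 2, 11 without either SE + LEV 2 days mouse or with only the compared groups in the fit, and 12 with DESeq2.

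**Figure D3:**
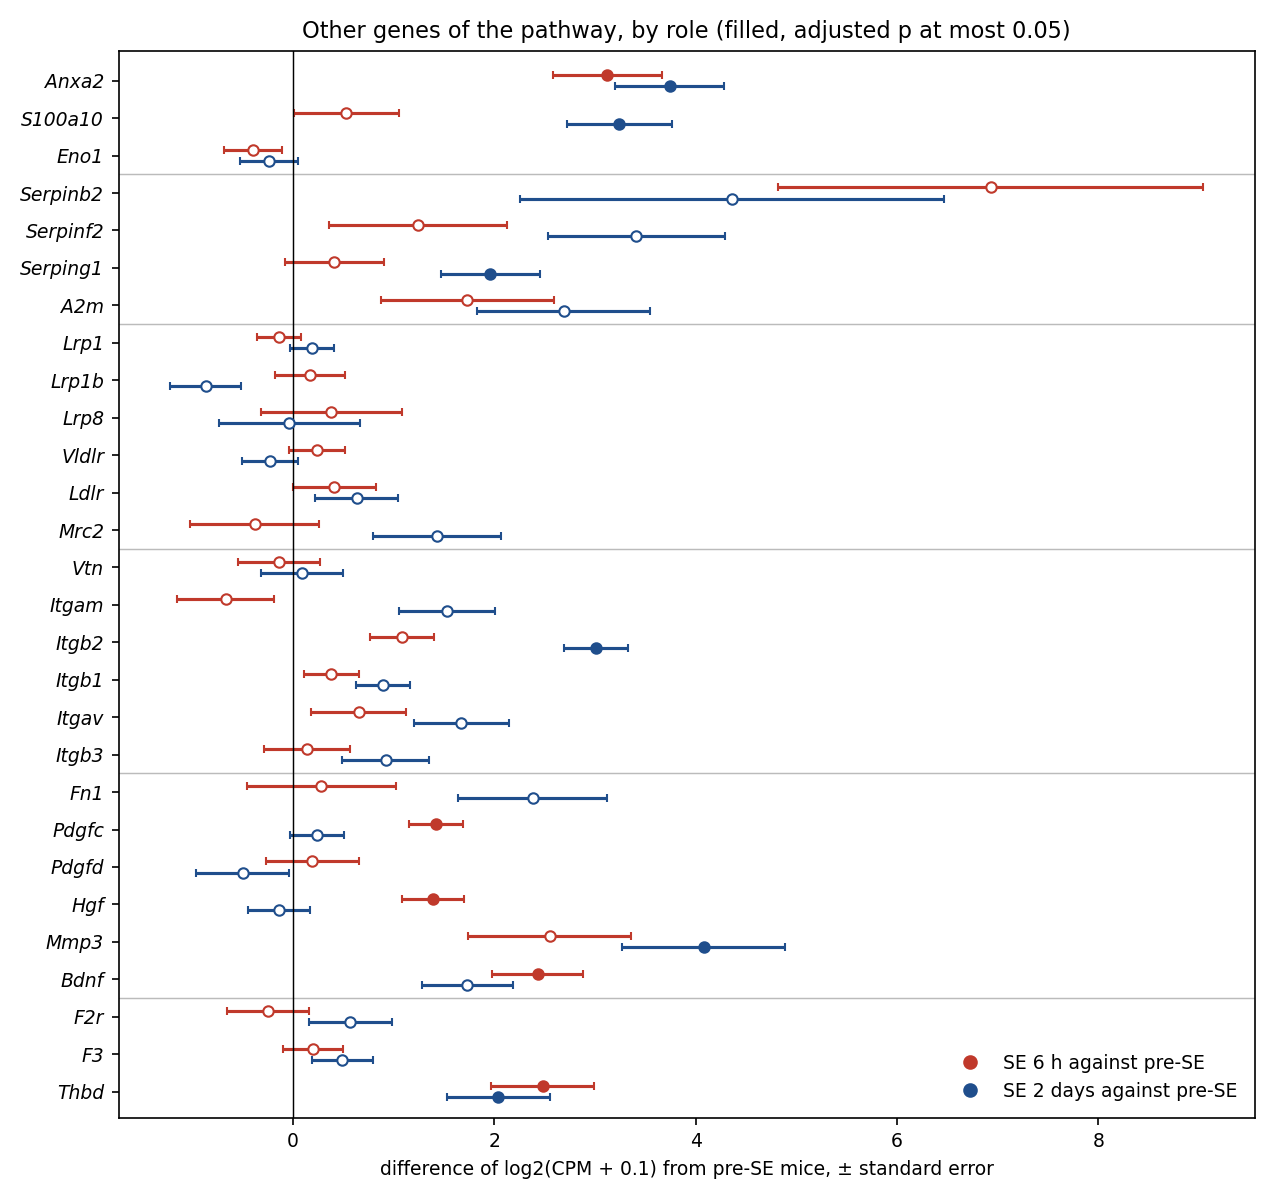
Differences of log2(CPM + 0.1) from pre-SE mice on the horizontal axis for the 28 other genes of the pathway, with standard errors from the limma fit (red, SE 6 h; blue, SE 2 days; filled, adjusted p at most 0.05). From top to bottom, grey lines part the plasminogen receptors, the other inhibitors, the clearance receptors, the partners of the urokinase receptor, the substrates and the coagulation partners. Filled points lie on the right of 0 in each case, with 5 at 6 h and 6 at 2 days.

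Of 3 cell-surface receptors of plasminogen, 1 rose by 6 h and 2 by 2 days. *Anxa2*, encoding annexin A2, which binds tPA and plasminogen, was at 5.0 and 5.53 CPM before SE, 40.22 and 53.44 CPM 6 h after it and 45.88 and 111.48 CPM 2 days after it. Its logFC was 3.12 (s.e. 0.54, adjusted p = 0.014) at 6 h and 3.74 (s.e. 0.54, adjusted p = 0.0036) at 2 days, and it overlaps another gene annotated on the same strand. *S100a10*, the partner of annexin A2 in a plasminogen-binding complex, rose at 2 days from 24.24 and 31.48 CPM to 178.29 and 384.39 CPM (logFC 3.24, s.e. 0.52, adjusted p = 0.0056 with limma), whereas at 6 h it was at 40.16 and 39.74 CPM (logFC 0.53, adjusted p = 0.63).

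Among the other inhibitors, edgeR and limma with the stated settings called none of 4 at 6 h, and limma called 1 at 2 days. DESeq2 called *Serpinb2* at 6 h and *Serpinb2*, *Serpinf2* and *Serping1* at 2 days. The gene called by limma was *Serping1*, the C1 inhibitor, called under 10 of 21 alternatives, with 4.45 and 5.98 CPM in pre-SE mice and 31.25 and 13.23 CPM in SE 2 days mice (logFC 1.96, s.e. 0.49, adjusted p = 0.045 with limma). None of the 6 clearance receptors, of which *Lrp1* takes up complexes of proteases and serpins, was called after SE, their median logFC being 0.20 for SE 6 h and 0.08 for SE 2 days. Of the 6 partners of uPAR, *Itgb2*, the common beta chain of leukocyte integrins, was called at 2 days, from 1.93 and 1.97 CPM to 16.15 and 16.76 CPM (logFC 3.01, s.e. 0.32, adjusted p = 0.0013).

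Of 6 substrates or downstream targets, limma called 3 higher at 6 h and another 1 at 2 days. *Bdnf*, a neurotrophin whose precursor plasmin can cleave, was at 51.97 and 39.55 CPM before SE and at 230.87 and 260.58 CPM 6 h after it (logFC 2.43, s.e. 0.45, adjusted p = 0.018). At 2 days *Bdnf* was at 89.97 and 252.71 CPM (logFC 1.73, s.e. 0.45). It was then not called by limma (adjusted p = 0.051) but was called by edgeR (0.047) and DESeq2 (0.00086). *Pdgfc*, a growth factor that tPA activates, rose from 7.21 and 7.75 CPM to 17.8 and 22.95 CPM at 6 h (logFC 1.42, s.e. 0.27, adjusted p = 0.021), and *Hgf*, hepatocyte growth factor, from 4.93 and 4.97 CPM to 11.23 and 15.35 CPM (logFC 1.39, s.e. 0.31, adjusted p = 0.043, called under 9 of 21 alternatives). Like *Plat*, both growth factors were called lower by limma in SE 2 days than in SE 6 h mice. The logFC was -1.19 for *Pdgfc* (adjusted p = 0.039) and -1.53 for *Hgf* (adjusted p = 0.024). In that comparison 3 of the 28 genes were called higher, namely *S100a10*, *Itgam* and *Itgb2*. Of all 15851 genes tested, 176 were called lower and 498 higher. *Mmp3*, a matrix metalloproteinase that plasmin activates, was at 0.0 and 0.04 CPM in pre-SE mice, under the limit of detection, and at 2.8 and 1.29 CPM in SE 2 days mice (adjusted p = 0.016). *Thbd*, encoding the endothelial thrombin receptor thrombomodulin, was called by limma at both times, with 3.38 and 9.63 CPM in pre-SE mice. It was at 27.04 and 38.64 CPM at 6 h (logFC 2.48, s.e. 0.51, adjusted p = 0.03). At 2 days it was at 19.29 and 29.42 CPM (logFC 2.04, s.e. 0.51, adjusted p = 0.045, called under 8 of 21 alternatives). The 2-day change was called by DESeq2 (0.0034) but not by edgeR (0.068).

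In the comparisons of SE + LEV with SE mice, none of the 28 genes was called by limma, edgeR or DESeq2 at either time, and an unadjusted p under 0.05 was given to 1 higher and 2 lower at 6 h and to 1 lower at 2 days, with median logFC values of -0.08 at 6 h and -0.30 at 2 days. *Hgf* was at 6.55 and 5.69 CPM and *Pdgfc* at 14.02 and 15.75 CPM in SE + LEV 6 h mice, in each case between the pre-SE and the SE 6 h mice. *Anxa2* was at 24.52 and 26.75 CPM in the same mice, also between both groups, while *Thbd* at 38.11 and 33.01 CPM overlapped the SE 6 h mice. These genes were named because they were called higher in SE 6 h mice, which by itself favours lower values in other mice. Both LEV mice lay below both SE mice at 6 h in 13.4% of all genes tested. At 2 days the groups overlapped for *Anxa2*, with 75.05 and 21.89 CPM in SE + LEV mice beside 45.88 and 111.48 CPM in SE mice. They also overlapped for *S100a10*, with 230.55 and 70.6 CPM beside 178.29 and 384.39 CPM. *Bdnf*, the gene lower at an unadjusted p under 0.05, was at 79.53 and 62.18 CPM beside 89.97 and 252.71 CPM (logFC -1.10, s.e. 0.45). *Hgf* was then higher in both SE + LEV mice (7.34 and 6.78 CPM) than in both SE mice (5.13 and 3.92 CPM), with a logFC of 0.64 (s.e. 0.31, adjusted p = 1.0 with limma), after -1.09 at 6 h (s.e. 0.31, adjusted p = 0.64). The difference between these LEV effects on *Hgf* was 1.73 (s.e. 0.44) and did not pass the adjustment (adjusted p = 1.0).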

How the data were processed

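CAGE libraries of whole hippocampi from 10 mice were used. The authors selected capped RNA, mapped the tags to mm9 with BWA 0.7.17 and HISAT2 2.0.5, clustered them with the RECLU pipeline, discarded clusters under 0.1 CPM and deposited 1 CPM value per gene and mouse. How clusters were summed to genes, and whether strand was used, is not given in the sources used here.

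Samples were grouped by their labels. Tags were recovered from the CPM steps, with 100% of values whole within 0.0051 CPM. CPM values were tested as log2(CPM + 0.1) with limma 3.58.1 in R 4.3.3, with all 10 libraries and 5 group means in 1 fit. The tests were two-sided, the prior variance followed the mean, and p-values were adjusted by Benjamini-Hochberg. A gene needed at least 0.1 CPM in at least 2 libraries. The scripts were tested on simulated data. The labels do not tie replicates to litters or batches, and p-values measure the spread between these mice. The detection limit of 3 tags covers counting error only.

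The members and lists were chosen with earlier results of these data known. Named genes were the members, other genes of the pathway called in a comparison of SE with pre-SE or SE + LEV with SE, up to 4 per role, and the 3 genes most like each member. Some items that fall under these rules are not reported here. The alternatives were pseudocounts of 0.01, 0.5 and 1 CPM, no filter or a filter of 1 CPM, median-of-ratios rescaling, a replicate block, no trend, a fit limited to the compared groups, the quasi-likelihood test of edgeR 4.0.16 and DESeq2 1.42.0 on the recovered tags, and each mouse left out. Annotation was GENCODE of mm9, to which all 15900 genes were matched by identifier.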

Additional observations from a re-analysis of the deposited data

Results flagged for a closer look

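The SE effect on *Plat* differed between the 2 time points by a test of the difference itself, since *Plat* was lower in SE 2 days than in SE 6 h mice (logFC -1.20, s.e. 0.27, adjusted p = 0.038 with limma, with both SE 2 days mice below both SE 6 h mice). The call was kept under 13 of 21 alternatives and was lost with the replicate block (0.051), without the mean-variance trend (0.059) and without any 1 of the SE 6 h, SE + LEV 6 h or SE 2 days mice (0.052 to 0.22). Because the same pre-SE mice serve both times, this comparison of the SE groups is also the comparison of their effects. With 2 mice in each group, no mouse could be tested as an outlier.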

How the results depend on the processing

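Each mouse left alone in its group by an omission was taken to vary like the other groups. Of 777 values of member results under alternatives, 721 kept their direction and call. Most member results were not called with the stated settings, and staying uncalled counted as kept. Among called results, *Plau* in SE + LEV 2 days against pre-SE was kept under 8 of 21 alternatives. *Plat* in SE 2 days against SE 6 h was kept under 13 and *Plaur* in SE + LEV 6 h against pre-SE under 15. The other called results were kept under 18 to 21. The numbers of members called for SE 6 h and SE 2 days against pre-SE and for SE + LEV against SE at both times stayed within 1.5 times of those given, apart from 1 to 2 for SE 2 days without single mice (2 to 3 for SE 6 h, 0 to 0 for both LEV comparisons). For SE + LEV 6 h against pre-SE, the number was 0 with pseudocounts of 0.5 and 1 CPM and 2 with DESeq2, and 0 to 1 without single mice. For SE + LEV 2 days against pre-SE it was 1 with a pseudocount of 0.5 CPM or median-of-ratios rescaling, 0 with a pseudocount of 1 CPM or only the groups compared, and 0 to 2 without single mice. For SE 2 days against SE 6 h it was 0 with the replicate block or without the trend and 0 to 1 without single mice, and for SE + LEV 2 days against SE + LEV 6 h it was 1 with DESeq2 and 0 to 1 without single mice. The cause was not tested.

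Among the same values, signs turned only without single mice. The logFC then ran, for SE 6 h against pre-SE, from -0.44 to 0.04 (*Serpini1*), and for SE 2 days against pre-SE from -0.16 to 0.31 (*Serpine2*). For SE + LEV 6 h against SE 6 h it ran from -0.18 to 0.31 (*Serpine2*) and -0.40 to 0.08 (*Serpini1*). For SE + LEV 2 days against SE 2 days it ran from -0.29 to 0.16 (*Plat*), -1.65 to 0.26 (*Plau*), -0.33 to 0.31 (*Serpine2*) and -0.45 to 0.21 (*Serpini1*). For *Serpine2* it ran from -0.45 to 0.05 in SE + LEV 6 h and from -0.26 to 0.38 in SE + LEV 2 days against pre-SE, and for *Plaur* from -1.87 to 0.16 in SE 2 days against SE 6 h.

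Same-numbered mice are different animals that share only a number, and their deviations from the group means correlated at -0.436 to 0.343 across genes. The replicate block turned the 1 call for SE 2 days against SE 6 h to 0 and changed no other call of a member.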

Other observations

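*Serpinb2*, encoding plasminogen activator inhibitor type 2, is described here after its values were seen. In the comparisons of SE with pre-SE mice it was not called by edgeR or by limma with the stated settings. It was called by DESeq2 (adjusted p = 0.0038 at 6 h and 0.00066 at 2 days). At 6 h it was called under 4 of 21 alternatives and at 2 days under 2 of 21, DESeq2 among them each time. It was at 0.28 and 0.06 CPM in pre-SE mice and 36.24 and 24.8 CPM in SE 6 h mice, with 0.37 and 1.04 CPM in SE + LEV 6 h mice. At 2 days it was at 0.13 and 111.67 CPM in the 2 SE mice and at 1.87 and 0.33 CPM in SE + LEV mice. Both SE 6 h mice thus stood above both mice of the pre-SE and SE + LEV 6 h groups. The SE 2 days mice were far apart, with 1 of them between the pre-SE mice. The logFC at 6 h was 6.93 (s.e. 2.11, adjusted p = 0.13 with limma, 0.002 to 0.42 over the alternatives). For SE + LEV 6 h against SE 6 h the logFC was -5.36 (s.e. 2.11, unadjusted p = 0.029 with limma). This was not called by limma, edgeR or DESeq2. Both LEV mice lay below both SE mice at 6 h in 13.4% of all genes tested. The gene overlaps a pseudogene annotated on the same strand.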
